A study of Homo sapiens with 3 samples.

Results

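The SMAD family and its inhibitors were examined as 10 genes: the receptor SMADs SMAD1, SMAD2, SMAD3 and SMAD5, the common SMAD SMAD4, the inhibitory SMADs SMAD6 and SMAD7, the ubiquitin ligases SMURF1 and SMURF2, and the corepressor SKI. They are 10 of 64449 annotated genes and of 20163 protein-coding genes. A peak was given to a gene when any base of it lay in the gene body or within 25 kb of it. By this rule the 10 genes held 16 of the 9941 RUNX2 peaks and 51 of the 27246 CBFB peaks. No peak was shared between 2 of the genes. The genes were chosen by name, but with earlier results of these data known.

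The peaks came from ChIP-seq (chromatin immunoprecipitation followed by sequencing) in untreated SAOS2 cells, an osteosarcoma line that lacks p53. RUNX2 was pulled down with a custom-made antibody and CBFB with a commercial one, with 1 library for each, so no value below has a replicate error and no difference was tested. An input library without antibody was not used here. The lists hold no reads and no expression values, so the depth is unknown and the identity of the line was not checked against markers. Each peak carries a score, which was read as that of the peak caller from its scale and the names of the peaks. Such a score rises as the p-value of the peak falls and depends on depth, but the lists do not state what it is. Scores are therefore given with their percentile, the share of the same list at or below that score. Scores began at 50 in both lists, and a site under that limit is not listed. All positions are hg19 (GRCh37), counted from 1.

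Receptor SMADs are phosphorylated by the receptors of the transforming growth factor beta (TGF-beta) and bone morphogenetic protein (BMP) families, join SMAD4 and move into the nucleus to regulate genes. SMAD2 and SMAD3 are the usual mediators of TGF-beta and activin signals, and SMAD1 and SMAD5 of BMP signals. SMAD6 and SMAD7 block this step, SMURF1 and SMURF2 tag SMADs, receptors and other proteins for degradation, and SKI represses transcription together with SMADs in the nucleus. RUNX2 is the master regulator of the osteoblast lineage and is known to act together with receptor SMADs, and SMURF1 is known to tag RUNX2 for degradation. CBFB is the non-DNA-binding partner of RUNX proteins.

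RUNX2 peaks were found at 4 of the 10 genes. SMAD3 had 8, SMAD6 had 3, SMURF1 had 3 and SKI had 2. SMAD1, SMAD2, SMAD4, SMAD5, SMAD7 and SMURF2 had 0. Among all protein-coding genes, 36.0% had a RUNX2 peak within 25 kb, so 4 of 10 was near the background. CBFB peaks were found at 9 of the 10 genes, against 62.2% of all protein-coding genes, and only SMAD4 had none. The windows searched were long. Their median was 132 kb for the 10 genes and 77.2 kb for all protein-coding genes, and each of the 10 windows was above the latter. A longer window has more room for a peak, and the part of this in the counts was not tested.

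**Figure D1:**
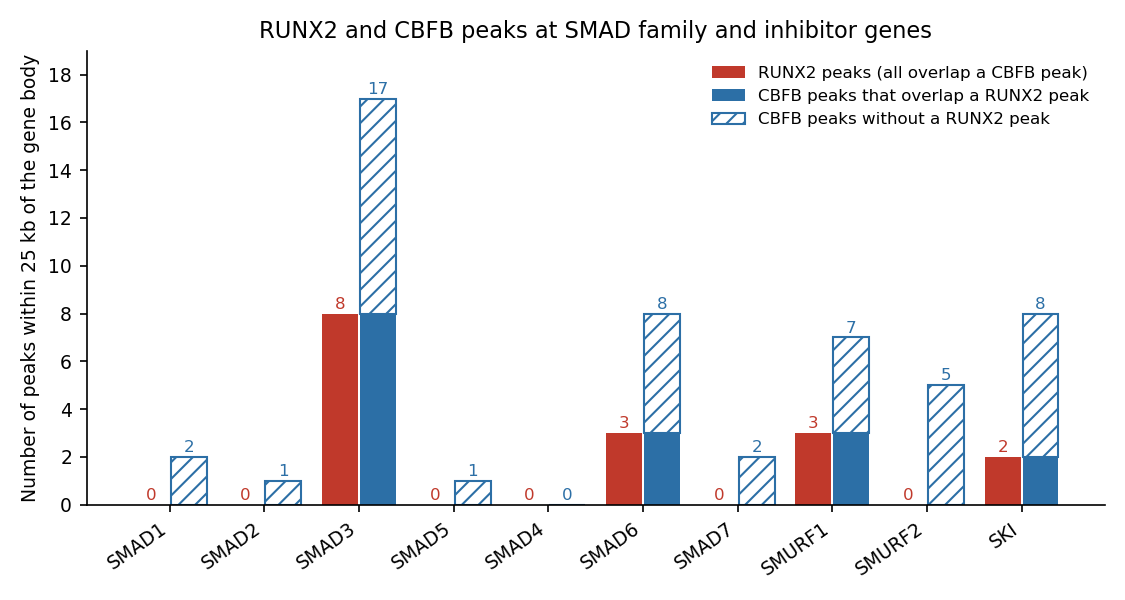
Number of peaks within 25 kb of each gene body, with RUNX2 in red and CBFB in blue (filled where the CBFB peak overlaps a RUNX2 peak, hatched where it does not). SMAD3 stands highest with 8 RUNX2 and 17 CBFB peaks, 6 genes have no RUNX2 peak, and SMAD4 has neither.

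SMAD3 was the gene with the most peaks in both lists. Its 8 RUNX2 peaks put it among 60 protein-coding genes, or 0.298% of all, that had at least as many. Its 17 CBFB peaks put it among 63 such genes. Per 100 kb of window SMAD3 had 4.41 RUNX2 peaks, above 98.6% of protein-coding genes, and 9.37 CBFB peaks, above 99.3%. The other genes with RUNX2 peaks had fewer. SMAD6 had 2.30 RUNX2 peaks per 100 kb, SMURF1 had 1.8 and SKI had 1.51. These were above 92.7%, 88.4% and 82.8% of protein-coding genes, whose mean was 0.620. For CBFB the same 3 genes had 6.12, 4.2 and 6.02 peaks per 100 kb, above 95.7%, 89.3% and 95.6%. These genes were picked by their RUNX2 peaks, each of which overlapped a CBFB peak, so a high CBFB rank is partly built in. The genes without RUNX2 peaks ranked lower for CBFB, above 79.3% (SMURF2), 75.2% (SMAD7), 60% (SMAD1), 46.2% (SMAD5), 40.9% (SMAD2) and 0% (SMAD4). For RUNX2, only 36.0% of protein-coding genes had a peak, so any gene with a peak stands above those without.

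To show the sequence under the peaks, each RUNX2 peak was searched for the RUNX core motif TGTGGT on both strands. The core lay within 100 bp of the midpoint in 7 of the 16 peaks, 5 at SMAD3 and 2 at SMURF1. These 7 stretches are printed here because they place a RUNX site close to the centre of a RUNX2 peak. Capitals mark the core copy nearest to the midpoint, and each sequence is read on the strand that carries TGTGGT. The peak at SMAD3 of the score 159.00 is shown in 30 bases because it touches an untranslated region (UTR).

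SMAD3, score 228.54, chr15:67342292-67342377, plus strand: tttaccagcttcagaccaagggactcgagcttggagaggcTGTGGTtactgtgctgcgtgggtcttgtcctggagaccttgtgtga
SMAD3, score 159.00, chr15:67390921-67390950, minus strand: tcaaatgtactcTGTGGTttgcctctgtgc
SMAD3, score 56.17, chr15:67399942-67400027, plus strand: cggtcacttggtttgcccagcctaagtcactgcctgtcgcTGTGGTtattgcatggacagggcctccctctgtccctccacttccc
SMAD3, score 227.48, chr15:67437176-67437261, plus strand: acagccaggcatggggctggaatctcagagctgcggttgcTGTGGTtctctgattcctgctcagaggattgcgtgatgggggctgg
SMAD3, score 72.02, chr15:67478318-67478403, plus strand: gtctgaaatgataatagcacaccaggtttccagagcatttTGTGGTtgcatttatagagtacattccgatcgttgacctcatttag
SMURF1, score 70.54, chr7:98680757-98680842, minus strand: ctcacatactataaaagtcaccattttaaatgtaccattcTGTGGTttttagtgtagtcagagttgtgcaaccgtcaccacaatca
SMURF1, score 61.96, chr7:98697366-98697451, plus strand: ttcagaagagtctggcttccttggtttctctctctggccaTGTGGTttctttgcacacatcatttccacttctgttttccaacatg

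In all 7 stretches the core was followed by T, which makes the longer motif TGTGGTT. The distance from the core to the midpoint ran from 2 bp in the SMURF1 peak of the score 70.54 to 83 bp in the SMAD3 peak of the score 159.00. No RUNX2 peak at SMAD6 or SKI held the core this close. In the highest-scoring RUNX2 peak of each of these genes the nearest core lay farther out, at 198 bp for SMAD6 and 176 bp for SKI, and both are shown for comparison.

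SMAD6, score 168.79, chr15:67095197-67095282, minus strand: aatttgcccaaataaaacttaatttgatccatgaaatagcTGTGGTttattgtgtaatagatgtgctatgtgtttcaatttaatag
SKI, score 225.39, chr1:2222718-2222803, plus strand: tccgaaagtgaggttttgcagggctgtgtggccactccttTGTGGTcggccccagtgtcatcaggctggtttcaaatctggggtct

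The share of the 16 RUNX2 peaks with the core near the midpoint was 43.8% (exact 95% interval 19.8 to 70.1, counting error only). It was 43.2% of 9928 RUNX2 peaks on chromosomes 1 to 22, X and Y, so the SMAD genes did not stand apart. The longer TGTGGTT was also present in 7 of 16 (43.8%), against 23.4% of the list, which lies inside the same interval. Of the CBFB peaks at the 10 genes, 18 of 51 (35.3%, 22.4 to 49.9) held the core near the midpoint, against 41.6% of the CBFB list. It was present in 6 of the 16 CBFB peaks that overlapped a RUNX2 peak and in 12 of the 35 that did not. SMAD proteins bind DNA as well, so their sites were also sought within 100 bp of the RUNX2 midpoints, on both strands. The palindrome GTCTAGAC was in 0 of 16 peaks and in 0.171% of the list. GGCGCC, the GC-rich site known from BMP targets, was in 1 of 16, the SKI promoter peak, and in 4.95% of the list. The AP-1 site (TGAGTCA or TGACTCA) was in 2 of 16, 1 at SMAD3 and 1 at SMAD6, and in 9.72% of the list. A match of letters is no proof of a bound site.

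The receptor SMADs differed among themselves. All 8 of their RUNX2 peaks and 17 of their 21 CBFB peaks were at SMAD3. SMAD3, the transducer of TGF-beta signals, spans 131 kb (chr15:67356101-67487511, plus strand). Its highest RUNX2 peak, with a score of 228.54 (percentile 92.3), lay at chr15:67341789-67342950, 13.2 kb upstream of the gene, in an intron of the gene ENSG00000259347. The next, at 227.48 (92.2), lay at chr15:67436670-67437837 in an intron of SMAD3 that is also an intron of ENSG00000259202. The third, at 159.00 (83.1), lay at chr15:67390545-67391491. Its midpoint was 1 bp from the start of a coding SMAD3 transcript that begins inside the gene body, 34.9 kb downstream of the start of the gene. These were the 3 highest RUNX2 peaks of the gene.

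The other SMAD3 peaks were lower. The peak at chr15:67383411-67384274 had a score of 103.57 (63.9) and was intronic. The peak at chr15:67372756-67374106 had a score of 80.32 (46.6), also in an intron. At chr15:67417867-67418669 the score was 79.11 (45.6) and the midpoint lay in the UTR of SMAD3, 214 bp downstream of another internal start of a coding transcript. Both remaining peaks were intronic and lower still, at chr15:67477988-67478873 with 72.02 (38.1) and at chr15:67399656-67400209 with 56.17 (14.0). SMAD3 thus ranged from the 14.0th to the 92.3rd percentile, with a median of 55.3. No RUNX2 peak lay within 5 kb of the main SMAD3 start, that of the MANE Select transcript, where the nearest was 15.5 kb downstream.

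Each of the 8 RUNX2 peaks at SMAD3 overlapped a CBFB peak. The partner of the peak of the score 227.48 had a CBFB score of 1001.78 (97.8), the highest CBFB score at SMAD3. The partner of the upstream peak had 702.69 and that of the peak of the score 103.57 had 702.43, both at the 95.3rd percentile. The partner of the peak at the internal start had 419.66 (88.7). The other 4 partners ran from 168.01 to 374.10. The 9 CBFB peaks without RUNX2 ran from 53.89 to 246.70, and the highest of them lay at chr15:67419975-67421135 in an intron, 114 bp from an annotated start.

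At the remaining receptor SMADs peaks were few and low in score. SMAD1, a BMP mediator (chr4:146402346-146480328, plus strand), had 2 CBFB peaks, with scores of 98.73 (percentile 40.1) at chr4:146403258-146404213 and 76.21 (26.0) at chr4:146417236-146418140. The first was 730 bp past the MANE Select start and fell in the UTR. SMAD5, also a BMP mediator (chr5:135468534-135524435, plus strand), had 1 CBFB peak of 54.69 (5.81) at chr5:135468184-135468988, with its midpoint 52 bp downstream of the MANE Select start, where the antisense gene SMAD5-AS1 also has an intron. SMAD2 (chr18:45335328-45457517, minus strand) had 1 CBFB peak of 50.04 (0.0587), the lowest score of all 51, at chr18:45479856-45480434, 22.3 kb upstream of the gene. None of these 4 CBFB peaks reached the median of the CBFB list. SMAD4 (chr18:48554898-48611415, plus strand), the partner of every receptor SMAD, had no peak of either kind.

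The inhibitory SMADs were split in the same way. SMAD6 (chr15:66994574-67075187, plus strand), which restrains BMP signals above all, had peaks of RUNX2 (3) and of CBFB (8). With 168.79 (85.0), the top RUNX2 peak lay at chr15:67094726-67096149, 19.5 kb downstream of the gene. The next, with 112.35 (68.4), lay at chr15:67077815-67078707, also downstream. The third, with 84.00 (49.9), lay at chr15:67057926-67058751 in an intron. Their CBFB partners had scores of 277.08, 176.32 and 307.14. All 3 RUNX2 peaks lay in or beyond the distal part of the gene, at least 63.8 kb from its start. The 5 CBFB peaks without RUNX2 at SMAD6 had scores of 206.40 (71.1), 98.27 (39.9), 94.40 (37.8), 81.01 (29.5) and 72.86 (23.5). The first lay at chr15:67004493-67006131 in an intron, and the one of 81.01 lay at -1.33 kb from the start of the gene. SMAD7 (chr18:46446223-46477335, minus strand), which blocks TGF-beta and BMP signals alike, had 0 RUNX2 peaks and 2 CBFB peaks, with 83.98 (31.5) at chr18:46486178-46487142, upstream of the gene, and 55.61 (6.95) at chr18:46449055-46449987, in an intron.

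**Figure D2:**
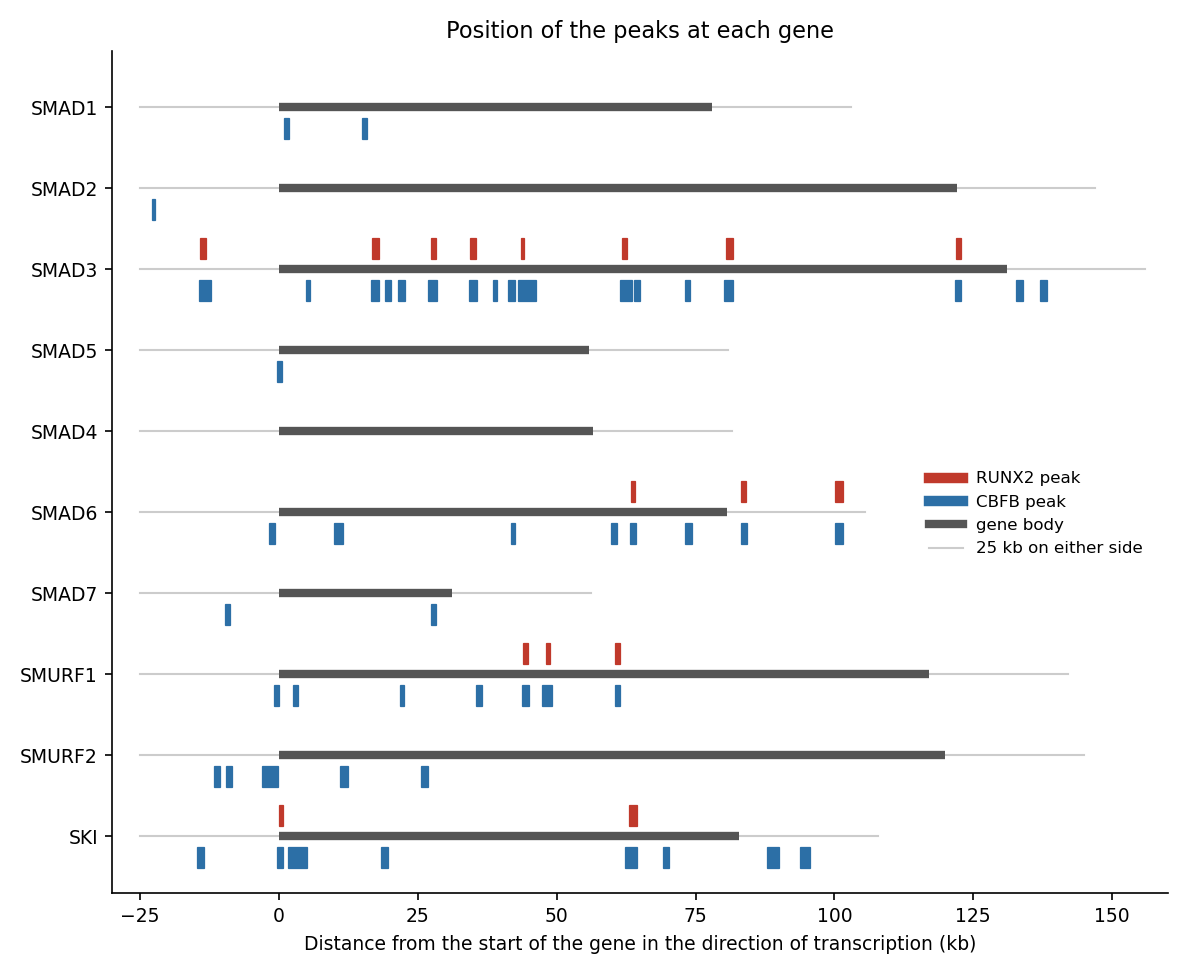
Position of every peak along each gene, in kb from the start of the gene in the direction of transcription, with RUNX2 peaks in red above and CBFB peaks in blue below the gene body (dark bar) and the 25 kb on either side (thin line). Among the 10 genes only SKI has a RUNX2 peak at its start, and the RUNX2 peaks of SMAD6 and SMURF1 begin 63.8 and 44.4 kb downstream of it.

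To contrast receptor with inhibitory SMADs, peaks were pooled over each class. The 4 receptor SMADs had 1.36 RUNX2 peaks per 100 kb (exact Poisson 95% interval 0.588 to 2.68) and the 2 inhibitory SMADs had 1.42 (0.292 to 4.14). For CBFB the values were 3.57 (2.21 to 5.46) and 4.72 (2.26 to 8.69). The receptor minus inhibitory difference was -0.0552 RUNX2 peaks per 100 kb (-2.89 to 1.68) and -1.15 CBFB peaks per 100 kb (-5.34 to 1.95). Both intervals spanned 0. They cover counting error only and leave out the spread between the genes of a class. The median percentile of RUNX2 peaks was 55.3 for receptor and 68.4 for inhibitory SMADs, a difference of -13.1 points (-57.6 to 28.3), whose interval covers less than 95% because only 3 inhibitory peaks were there. For CBFB it was 65.8 and 38.8, a difference of 27.0 points (-30.2 to 50.1). The pooled RUNX2 values rest on 1 gene in each class. For CBFB, SMAD3 held 17 of the 21 receptor peaks and SMAD6 held 8 of the 10 inhibitory peaks. The median CBFB percentile was 71.3 at SMAD3 alone and 52.8 at SMAD6 alone. Without SMAD3 the receptor SMADs had 0 RUNX2 peaks and 0.985 CBFB peaks per 100 kb over 406 kb. In each class the gene on chromosome 15 held all RUNX2 peaks.

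SMAD6 and SMAD3 are neighbours on chromosome 15. The stretch from 25 kb before SMAD6 to 25 kb after SMAD3 (chr15:66969574-67512511, 543 kb) held 14 RUNX2 and 31 CBFB peaks. The 231 kb between the 2 windows held 3 of these RUNX2 peaks, or 1.30 per 100 kb, and 6 of the CBFB peaks. The strongest of them lay just outside the 25 kb limit of SMAD3, at chr15:67329193-67330301, with a RUNX2 score of 140.80 (79.0). It overlapped a CBFB peak of 1297.83 (98.9), the highest CBFB score of the stretch. All 14 RUNX2 peaks of the stretch overlapped a CBFB peak. The middle of the stretch, between 182 and 312 kb from the start of SMAD6, was free of peaks in both lists.

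**Figure D3:**
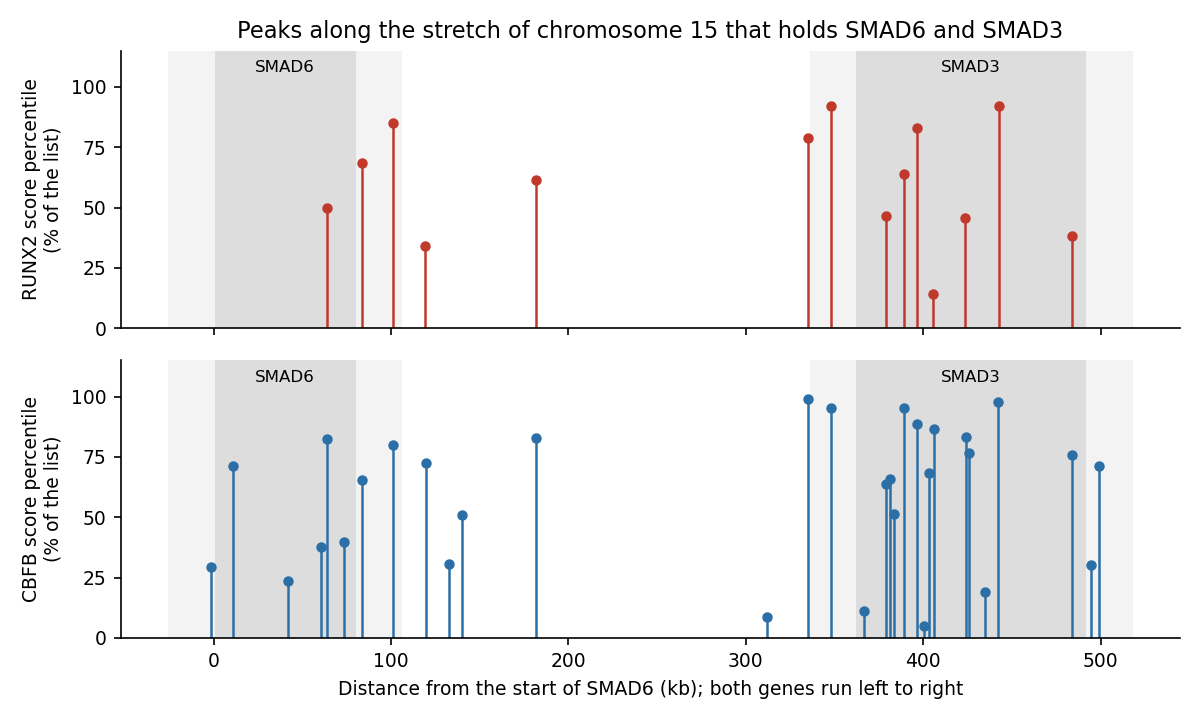
Score percentile within each list (y axis, %) of the RUNX2 peaks (top) and CBFB peaks (bottom) against the distance from the start of SMAD6 in kb, with gene bodies in dark and the 25 kb on either side in light grey. RUNX2 peaks gather at the end of SMAD6 and along SMAD3, and the tallest CBFB marker stands just outside the SMAD3 window, at 98.9.

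SMAD2, SMAD4 and SMAD7 all lie on chromosome 18. They had 0 RUNX2 and 3 CBFB peaks in 360 kb. Chromosome 18 as a whole had few peaks, with 0.845 RUNX2 and 3.32 CBFB peaks per Mb, the lowest of the 22 autosomes for both, against 3.21 and 8.79 over all chromosomes. Of its 266 protein-coding genes, 14.3% had a RUNX2 peak and 39.8% a CBFB peak within 25 kb. The low counts of these 3 genes and of their chromosome cannot be told apart here. SMAD1 and SMAD5, which also lacked RUNX2 peaks, lie on chromosomes 4 and 5. Chromosome 4 was the next lowest autosome in both lists, with 1.97 RUNX2 and 5.97 CBFB peaks per Mb. Chromosome 5, with 2.70 and 8.26, was also below the values over all chromosomes. So was chromosome 15, which holds SMAD3 and SMAD6, with 2.83 and 8.42. Chromosome 17, which holds SMURF2, another gene without RUNX2 peaks, was above them with 6.68 and 17.4.

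The 2 ubiquitin ligases also differed. SMURF1 (chr7:98625063-98741731, minus strand) had 3 RUNX2 peaks, all in its introns. Their scores were 79.83 (46.3) at chr7:98692938-98693722, 70.54 (36.3) at chr7:98680362-98681233 and 61.96 (24.2) at chr7:98696874-98697806. None of the 3 reached the median of the RUNX2 list. Their CBFB partners had 235.51, 134.99 and 138.75. The highest CBFB peak without RUNX2 at SMURF1, with 97.76 (39.6) at chr7:98741776-98742647, lay at -480 bp from the main start, where a minus sign means upstream. SMURF2 (chr17:62538400-62658425, minus strand) had 5 CBFB peaks and 0 RUNX2 peaks. The highest, with 246.72 (76.7), lay at chr17:62646038-62647474 in an intron, and another with 128.18 (52.5) lay at -1.59 kb from the start. The other 3 CBFB peaks of SMURF2 had 83.16 (31.0), 75.39 (25.4) and 50.34 (0.481). The absence of RUNX2 peaks at SMURF2 depended on the reach, as 4 RUNX2 peaks came in when it was set to 50 kb, the highest of them with 119.07.

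SKI (chr1:2158827-2241652, plus strand), the nuclear corepressor, had 2 RUNX2 peaks, both in the upper part of the list. The peak at chr1:2158786-2159560 had a score of 143.33 (79.8). It was the only RUNX2 peak of the 16 within 5 kb of a MANE Select start, at -585 bp from it, and its CBFB partner had 234.87. The other, at chr1:2221911-2223257 in an intron, had 225.39 (92.0). Its partner had 1523.42 (99.3), the highest CBFB score at any of the 10 genes. SKI also had the strongest CBFB peak without RUNX2, with 591.37 (93.6) at chr1:2246754-2248900, 5.10 kb downstream of the gene in an intron of ENSG00000287356. The other 5 CBFB peaks without RUNX2 at SKI had 293.05 (81.3), 234.45 (75.2), 216.66 (72.7), 123.85 (51.0) and 58.20 (10.0). Of the 8 CBFB peaks at SKI, 7 were thus above the median of the list.

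Start sites were then compared across the genes. Counting every annotated start, 3 of the 10 genes (SMAD3, SMURF1 and SKI) had a RUNX2 peak within 5 kb, against 16.8% of protein-coding genes, and 7 of 10 had a CBFB peak there, against 37.9%. At SMURF1 that start belonged to a transcript without an annotated coding sequence, and at SMAD3 2 of the 4 such starts belonged to coding transcripts. All annotated starts of a gene numbered from 4 at SMURF1 to 20 at SMAD4. More starts leave more room for a peak near one, and the part of this in the counts was not tested. With the MANE Select start alone, 1 gene had a RUNX2 peak and 7 had a CBFB peak within 5 kb. The share of all protein-coding genes for this start alone is not given here, and 16.8% and 37.9% do not apply to it. Of these 7 genes, SMAD1, SMAD3, SMAD5, SMAD6 and SMURF1 had a nearest CBFB peak that scored below 100, from 54.69 at SMAD5 to 98.73 at SMAD1. SMURF2 with 128.18 and SKI with 234.87 were above that. By midpoint, 11 of the 16 RUNX2 peaks lay in introns of the gene, 2 in its UTR, 0 in coding sequence and 3 outside it. Of the 51 CBFB peaks, 33 lay in introns, 3 in the UTR and 15 outside.

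Each of the 16 RUNX2 peaks shared 1 bp or more with a CBFB peak (100%, exact 95% interval 79.4 to 100), against 94.2% of the whole RUNX2 list. The paper reports a lower share of RUNX2 peaks that overlap CBFB peaks. It does not state its rule for an overlap, and the reason for the gap was not tested. In 13 pairs the RUNX2 peak lay wholly inside the CBFB peak, and the smallest part inside was 95%. The distance between midpoints ran from 7 to 824 bp, with a median of 96 bp. Spearman's rho of the scores across the 16 pairs was 0.594, which is a description of these 2 libraries, and pairs at 1 gene share their surroundings.

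Seen from CBFB, a RUNX2 peak was overlapped by 16 of the 51 peaks (31.4%, 19.1 to 45.9), against 33.8% of the CBFB list. The overlapping ones ranked higher. Their scores ran from 134.99 to 1523.42, with a median percentile of 81.1, while the 35 others ran from 50.04 to 591.37, with a median percentile of 32.6. The CBFB list was also split into 5 equal groups along its scores. In the lower 2 groups, 0 of 21 peaks at the 10 genes had a RUNX2 partner. In group 3 it was 2 of 6, in group 4 it was 6 of 14 (42.9%) and in the highest group 8 of 10 (80.0%, 44.4 to 97.5). Over the whole list these shares were 5.76% and 11.5% in the lower 2 groups, 22.4% in group 3, 44.9% in group 4 and 84.3% in the highest. The shares of the SMAD genes in these groups had the whole-list values inside their intervals. The 2 CBFB peaks of the highest group without RUNX2 were both at SKI. The 11 CBFB peaks at the genes without RUNX2 peaks, none of which can overlap one of their RUNX2 peaks, had a median percentile of 26.0 and a highest one of 76.7. For the 24 CBFB peaks without RUNX2 at the genes that have RUNX2 peaks these were 39.8 and 93.6.

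**Figure D4:**
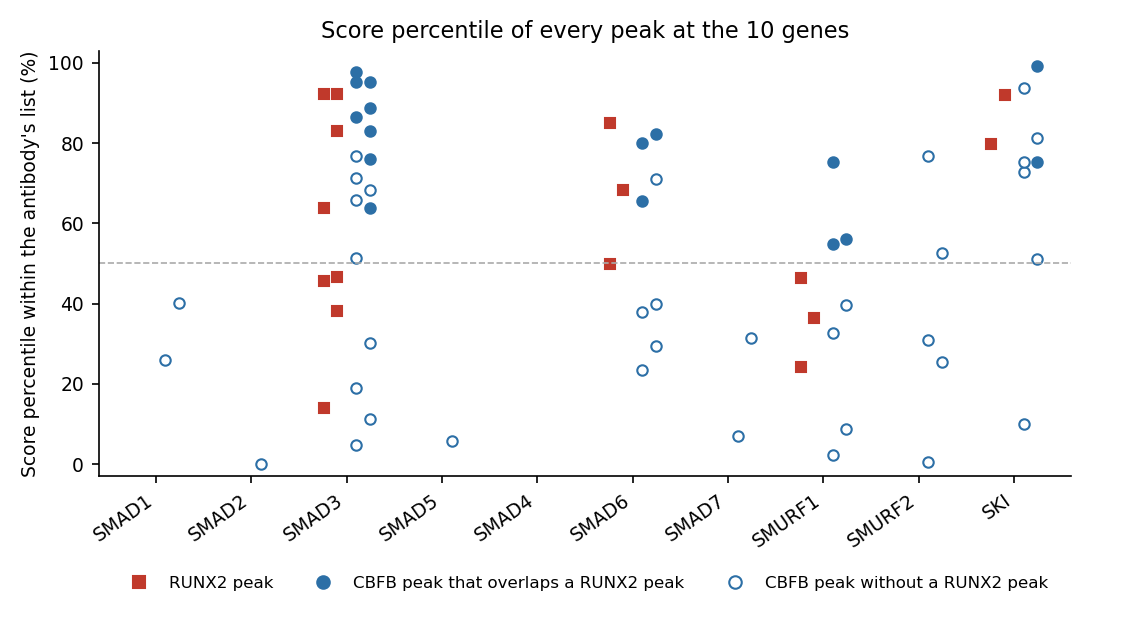
Score percentile within its own list (y axis, %) of every peak at the 10 genes, with RUNX2 peaks as red squares and CBFB peaks as blue circles, filled where they overlap a RUNX2 peak; the dashed line is the median of a list, and points are shifted sideways for clarity. Filled circles lie at 54.9 and above, and all circles of SMAD1, SMAD2, SMAD5 and SMAD7 lie below the median.

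Finally, 37 other genes of the pathway were examined in the same way, as receptors, modulators and targets. A RUNX2 peak was found at 18 of the 37 (48.6%), against 36.0% of all protein-coding genes, and a CBFB peak at 32 (86.5%), against 62.2%. The lengths of their windows were not compared with those of other genes. By role, RUNX2 peaks were found at 6 of 12 receptors (50%), 5 of 17 SMAD partners and modulators (29.4%, below the share of all protein-coding genes) and 7 of 8 target genes (87.5%). SMAD9, the remaining BMP receptor SMAD, had 0 RUNX2 peaks and 1 CBFB peak. SKIL, the relative of SKI, had 1 of each. None of the 37 had more than 5 RUNX2 or 8 CBFB peaks, fewer than SMAD3. The highest RUNX2 score was 718.57 (99.5) near STUB1, which encodes a ubiquitin ligase. That peak lay outside STUB1, in a noncoding exon of ENSG00000261659. Next came 497.57 (99.0) near DLX5, a homeobox gene induced by BMP in osteoblasts, and 467.39 (98.9) near TGFBR3, the TGF-beta co-receptor betaglycan. Both of these peaks were intergenic. Then came 163.97 (84.1) at the start of ZFYVE9, which presents SMAD2 and SMAD3 to the receptor. The first 3 of these scores were above every RUNX2 score at the SMAD genes.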

How the data were processed

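ChIP-seq peak lists for RUNX2 and CBFB in SAOS2 cells were used, with 1 library per antibody. Peak calling was done by the authors with MACS. The deposited value of each peak was taken to be the score of that caller, from its scale and the peak names, which the sources used here do not state. The submitters' processing notes name MACS 1.4.1, CASAVA 1.8.2 and hg19. The aligner, the limit for calling, the depth and the use of the input are not given in the sources used here. Annotation was GENCODE release 44 lifted to GRCh37. Positions were shifted to count from 1. Distances to gene bodies were measured from peak edges and other distances from midpoints. Overlap meant at least 1 bp. Motifs were read from the GRCh37 sequence. Shares carry exact Clopper-Pearson and densities exact Poisson 95% intervals, and differences of densities join the latter (MOVER method). Medians carry order-statistic intervals, which for 3 peaks span the lowest to the highest and cover less than the stated level, and their differences are joined likewise. All cover counting error only. The steps for overlap and motifs were run on shifted copies of the RUNX2 peaks and on made-up sequences with planted cores. Chance overlaps were not counted there and chance copies of the core could not occur, so this was a check of the code only. No p-value was computed. All 10 genes and their RUNX2 peaks are named by rule. For CBFB, partners and the highest peak without RUNX2 per gene were named, and of the other pathway genes the 5 with the highest RUNX2 score, of which 1 is not reported here. SMAD9, SKIL and the remaining single CBFB peaks were named after their values were seen, as were sequences beyond 1 per gene. The genes and lists were chosen with earlier results of these data known. The tools were scipy 1.17.1, pandas 2.3.3, matplotlib 3.10.9 and numpy 2.4.6 under Python 3.11.15.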

Additional observations from a re-analysis of the deposited data

How the results depend on the processing

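Of 91 alternative values, 74 stayed within the limits set for them, 10 moved and 7 changed sign. Every sign change was in a receptor minus inhibitory difference, whose intervals spanned 0 from the start. For RUNX2 peaks per 100 kb it became 0.119 with a reach of 5 kb and 0.911 in the gene body alone. For CBFB it became 0.324 both with scores of at least 100 and with scores at or above the median of the list. For the median RUNX2 percentile it became 4.8 points with a reach of 50 kb and 11 points under both score limits. The difference in median CBFB percentile kept its sign but fell from 27.0 to 1.21 points under both score limits. That fall was counted as within its limits. Under either score limit 8 RUNX2 and 29 CBFB peaks were left, and 5 genes had a CBFB peak, since fewer peaks were counted. The genes with a RUNX2 peak numbered from 3 to 5. The shares of all protein-coding genes under these settings are not given here, so these counts of genes have no background beside them. The share of RUNX2 peaks with a CBFB partner was 68.8% with midpoints within 200 bp, and the share of CBFB peaks with a RUNX2 partner was 58.3% with lists of equal length. Only 1 gene, SKI, had a RUNX2 peak near the start of the gene body alone. The RUNX core was in 75% when the whole peak was searched, a longer stretch. No paired analysis was possible because the labels give 1 library per antibody. Without replicates or reads, a missing peak cannot be told from one under the calling limit.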
